A study of Drosophila melanogaster with 2 samples.

Results

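Upstream promoter regions in the peaks of tagged REPTOR in Drosophila embryos were described from the summits of ChIP-seq peaks, that is, the base of highest signal within each peak. A summit was a member where it lay more than 100 and at most 1000 bp upstream, in the direction of transcription, of the nearest start site of any transcript of a protein-coding gene. Summits between or within 200 bp of the outermost starts of 2 genes transcribed away from each other, with at most 1000 bp between those starts, were left out. Of the 5321 peaks in the deposited list that combines both replicates, 1040 were members (19.5%, exact 95% interval 18.5 to 20.6%, for counting error only). Members made up 19.7% of the 5321 strongest calls of replicate 1 (1046 summits) and 19.1% of those of replicate 3 (1018 summits). The other peaks fell into 997 within 100 bp of a start, 458 at the same distances downstream, 1703 farther than 1000 bp from any start and 1123 at divergent pairs.

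The chromatin came from whole embryos of Drosophila melanogaster aged 0 to 24 h, with males and females pooled and no treatment named in the labels. The line, CG13624-GFP, stably expressed CG13624, the gene now called REPTOR, with eGFP fused to its C terminus, and the fusion was pulled down with an antibody against GFP after sonication. There were 2 biological replicates of this single group, numbered 1 and 3 in the labels, and no other condition. A pool of whole embryos of all stages does not tell in which cells a region was bound, the promoter that drives the fusion is not given in the labels, and reads from the transgene and from the native REPTOR gene cannot be told apart. Peak signals are the authors' own values on a scale that is not given in the sources used here. Read depth is not known from the lists.

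REPTOR belongs to the bZIP family of transcription factors and is held in check by the growth kinase TORC1. When TORC1 is inhibited, REPTOR enters the nucleus and, with its partner REPTOR-BP, activates genes of the stress and starvation response. The stretch upstream of a start site holds the proximal promoter, where sequence-specific factors bind next to the core promoter at which RNA polymerase II is loaded. In flies, housekeeping promoters often hold the DRE, the site of DREF, or Motif 1, the site of M1BP, close to the start, whereas many developmentally regulated promoters use TATA boxes and GAGA sites and answer to distant enhancers.

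The windows of the summit base and 50 bp on each side are shown for 6 of the strongest members, including that in REPTOR. They are shown for 1 member each with a DRE, a Motif 1 and a CRE core, the motif TGACGT that many bZIP dimers bind. Capitals mark the motif named for the last 3 and a TATA box in CG18549. Each is read 5′ to 3′ on the strand of the gene from the Release 6 reference (dm6), and none overlapped an annotated UTR. On the minus strand, the window in Lk6 spans chr3R:11760997-11761097, that of ph-p chrX:2137297-2137397, that of larp chr3R:28326542-28326642 and that of REPTOR chr3R:24572611-24572711. Also on the minus strand are the windows of CG7824, chr3R:29859880-29859980, and of moody, chrX:2050248-2050348. On the plus strand, the window of gish spans chr3R:16280671-16280771, that of CG18549 chr3R:12449121-12449221 and that of l(3)73Ah chr3L:16588243-16588343.
Lk6: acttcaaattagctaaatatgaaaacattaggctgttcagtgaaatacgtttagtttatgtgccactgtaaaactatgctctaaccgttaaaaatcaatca
ph-p: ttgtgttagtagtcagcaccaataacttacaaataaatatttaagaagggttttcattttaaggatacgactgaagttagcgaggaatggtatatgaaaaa
larp: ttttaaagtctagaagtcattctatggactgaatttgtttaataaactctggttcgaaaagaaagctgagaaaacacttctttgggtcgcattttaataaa
gish: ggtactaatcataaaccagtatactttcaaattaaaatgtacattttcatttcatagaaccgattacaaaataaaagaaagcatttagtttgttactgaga
CG18549: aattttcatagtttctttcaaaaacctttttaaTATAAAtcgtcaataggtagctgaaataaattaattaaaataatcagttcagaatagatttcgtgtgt
REPTOR: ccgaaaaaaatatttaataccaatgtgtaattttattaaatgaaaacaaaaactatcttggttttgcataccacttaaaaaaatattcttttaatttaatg
l(3)73Ah: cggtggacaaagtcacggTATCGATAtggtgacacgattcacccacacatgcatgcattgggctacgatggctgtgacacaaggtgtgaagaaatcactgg
CG7824: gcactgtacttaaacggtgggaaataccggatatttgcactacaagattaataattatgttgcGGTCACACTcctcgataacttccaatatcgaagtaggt
moody: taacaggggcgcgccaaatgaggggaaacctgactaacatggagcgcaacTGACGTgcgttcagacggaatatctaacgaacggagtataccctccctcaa

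The 6 strongest of these windows had GC contents of 30.7% for Lk6, ph-p and larp, 25.7% for gish, 22.8% for CG18549 and 19.8% for REPTOR. The windows of CG31145 (34.7%) and CG17896 (37.6%), members of similar strength that are not printed, were less rich in A and T than these 6. The 3 shown for a motif had 50.5% for l(3)73Ah, 39.6% for CG7824 and 52.5% for moody. None of the first 6 held any of the 16 motifs searched other than the TATA box of CG18549.

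Summits crowded towards the start site. The median distance was 261 bp (quartiles 165 and 479 bp), and 585 of 1040 members (56.3%) lay within 300 bp. In the strongest calls of each replicate taken alone, the medians were 249 bp in replicate 1 and 263 bp in replicate 3, and 59.8% and 56.7% lay within 300 bp. Counted per 100 bp, from 100 bp outwards, there were 365, 220, 137, 86, 75, 49, 42, 28 and 38 members. Relative to the bases available in each bin, this was a fall from 290 summits per Mb in the first bin to 31.8 in the eighth, with 45.8 in the last. Downstream of starts the density was 70.1 per Mb in the first bin and between 24.3 and 38.0 per Mb in the bins beyond, so that the upstream density was the higher in every bin and the difference was largest next to the start. Over the whole range the density was 111 summits per Mb upstream, 34.5 downstream and 16.0 beyond 1000 bp.

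**Figure D1:**
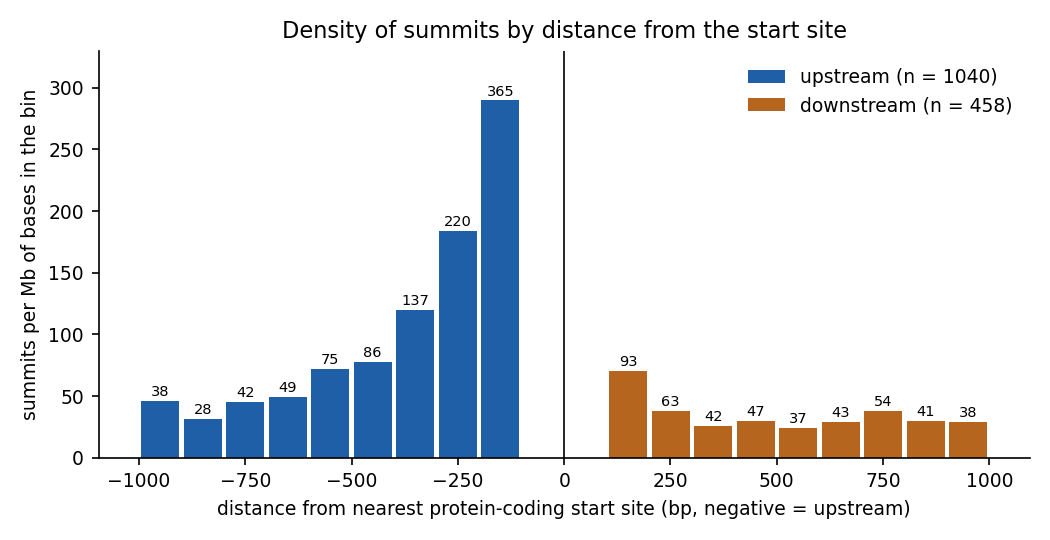
Summits per Mb of bases at each distance from the nearest protein-coding start site, in bins of 100 bp, with the number of summits above each bar. The upstream bars fall from 290 per Mb next to the start to 31.8 per Mb in the eighth bin, while the downstream bars start at 70.1 per Mb; summits within 100 bp of a start are not drawn.

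The limits of the rule cut through a continuous range. The 39 members up to 110 bp from the start had a median signal of 140, and the 46 summits at 91 to 100 bp, just outside, had 133. At the far end, the 22 members at 955 to 997 bp had a median of 126, and the 12 summits just outside, at 1001 to 1048 bp, had 118. Members 1 bp inside the near limit belonged to CG10898 (signal 259), Mapmodulin (223) and Pfrx (78.3), and the member nearest to the far limit to Sarm (997 bp, signal 81.1). Of the nearest summits outside, 1 of several at 100 bp belonged to Rtnl1 (signal 169) and that at 1001 bp to CG1142 (signal 111).

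Many members lay inside genes, since many start sites of fly genes lie downstream of another start of the same gene. The nearest start of 420 members (40.4%) was such an internal start, and the summit then lay inside the gene that owns it. Another 482 (46.3%) were intergenic and 138 (13.3%) lay inside a different gene. By annotation, 456 members were in introns, 38 in 5′ UTRs, 25 in 3′ UTRs, 36 in other exons and 3 in coding sequence. Of all bases that meet the rule, 42.5% were intergenic. Median signals were 140 for intergenic members, 143 inside the own gene and 130 inside another gene, and the median distances were 249, 282 and 289 bp. When a single summit, the strongest, was kept per gene and class, an alternative chosen after seeing the data, the intergenic share was 49.7% and the share inside the own gene 36.2%. A start of a noncoding gene lay within 100 bp of 19 members, for 16 of them that of an ncRNA gene.

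By chromosome arm, the density ran from 98.0 members per Mb on 3L to 134 per Mb on X. The members belonged to 872 genes. Of these, 735 had a single upstream summit, 115 had 2 and 22 had at least 3. The gene with the most was larp, which encodes a La-related RNA-binding protein, with 6 summits at distances of 110 to 988 bp from different starts and signals from 126 to 1328. Rtnl1, an endoplasmic reticulum shaping reticulon, had 4 with signals from 133 to 708, and Ptpmeg2, bun, RapGAP1, Pdk1 and Moe also had 4 each. For 197 members (18.9%) another peak of the list had its summit within 500 bp, beside 13.1% of all peaks, and in 64 neighbouring pairs of members the peak intervals overlapped, so that they are not independent. For 179 members (17.2%) the gene also had a summit within 100 bp of one of its starts. Counted by gene, 14.8% of all protein-coding genes had such a summit. In the stricter list of peaks at or above the median signal the share of members was 7.78%, and that list also holds fewer start-site summits.

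The signal was higher at members than at start-site, downstream and distal summits. The pooled signal of members ran from 78.0 to 1640, with a median of 140 and quartiles of 99.9 and 230. The medians were 117 within 100 bp of a start, 118 downstream, 120 at distal summits and 132 at divergent pairs. A signal at or above the median of the whole list was found at 604 of 1040 members (58.1%), beside 50% of all peaks. The share was 44.9% for summits within 100 bp of a start (two-sided Fisher's exact test on summit counts, Benjamini-Hochberg adjusted over 54 tests, adjusted p = 4.73e-08). It was 43.9% downstream (exact adjusted p = 3.14e-06) and 46.7% at distal summits (exact adjusted p = 7.91e-08). Each of these 3 differences kept its direction and passed the threshold under every alternative run for it, which leaves out the stricter list and the lists of single replicates, where the pooled median does not apply. The tests take summits, which are not biological replicates, as the unit and describe this list.

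The excess was steepest at the top. Of the 100 strongest peaks 39 were members, while 26 were distal, 22 at divergent pairs, 9 within 100 bp of a start and 4 downstream. Ranks of 500 or better were held by 164 members (15.8%), beside 9.4% of all peaks. Of the 3963 calls on the joint reads of the replicates that met the rule, 1040 (26.2%) were in the deposited combined list, which holds 17.7% of all 30000 such calls. The share was higher at divergent pairs (46.9%) and within 100 bp of a start (32.4%), and lower downstream (11.9%) and at distal calls (10.2%). By distance, 63.6% of members up to 200 bp and 61.4% of those between there and 300 bp reached the median of the list. In the next bin 54.7% did so and in the eighth 39.3%, while the bin that ends at 700 bp, with 49 members, had 69.4%.

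Stronger members were richer in A and T. The median GC content of the summit window was 31.7% in the top quartile of the members by signal, 34.7% in the next, 37.6% in the third and 38.6% in the bottom quartile (Spearman's rho of signal and GC −0.22 over 1040 summits, given as a description). Over all members the median was 35.6%, beside 39.6% in 76761 tiles of the same width that cover the bases meeting the rule. In summits within 100 bp of a start the quartiles had 44.6, 45.5, 44.6 and 45.5% (rho −0.05), and in distal summits 34.7, 34.7, 35.6 and 35.6% (rho −0.08). Downstream summits went from 37.6% in the top quartile to 41.6% in the bottom quartile (rho −0.19), and divergent pairs from 34.7 to 41.6% (rho −0.16). The 5 correlations were not tested against each other. The part of GC content in the signal was not tested.

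**Figure D2:**
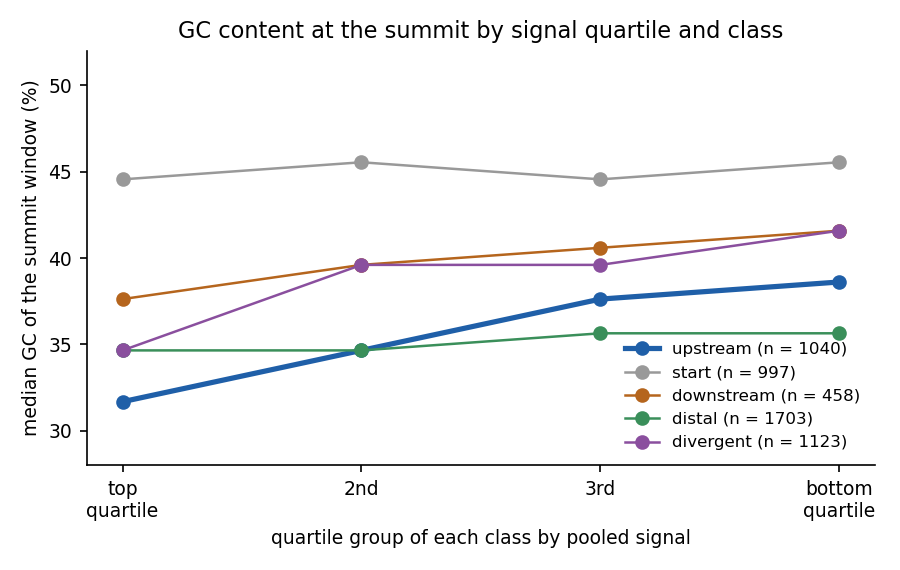
Median GC content of the summit window (%) for each class of summit, divided into quartile groups by pooled signal; each point is 1 such group. The members rise from 31.7% in the top quartile to 38.6% in the bottom quartile, while the summits within 100 bp of a start stay at 44.6 to 45.5%.

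The dip in GC was centred on the summit. In slightly narrower windows placed along the direction of the gene, the median GC content was 40.4% at 500 bp upstream of the summit, 37.4% at 100 bp upstream, 35.4% at the summit, 41.4% at 100 bp towards the start and 44.4% at 200 bp towards it. Both flanks were thus higher than the summit itself, the flank on the side of the start more so. Windows placed 200 bp towards the start were centred at or beyond it for the 365 members within 200 bp of their start. That flank thus mixes upstream sequence with sequence at and past starts.

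The strongest members lay in and near genes of varied function, and in the first 5 the summit lay in an intron of the named gene itself, upstream of an internal start. The top signal, 1640, belonged to a summit 204 bp upstream of such a start of px, plexus, which acts in wing vein patterning. Its signal was 779 in replicate 1 and 863 in replicate 3, ranks 9 and 5. Next came a summit 968 bp upstream of an internal start of Lk6, a kinase related to mammalian MNK that phosphorylates the cap-binding protein eIF4E, at 1573 (813 and 757). The summit 492 bp upstream of an internal start of ph-p, a Polycomb group gene, had 1488 (789 and 720), and that 328 bp upstream of an internal start of larp had 1328 (611 and 724). For gish, which encodes casein kinase 1 gamma, the summit was 168 bp from its internal start with 1219 (623 and 600). In all of these, the rank in each replicate's own list was 20 or better.

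Several genes of transcription and chromatin factors followed among the top 20. Sox14, an HMG-box factor of the ecdysone response, had a summit 250 bp upstream with a signal of 1096 (525 in replicate 1 and 565 in replicate 3). HmgZ, an HMG-box chromatin protein gene, had 955 at 545 bp from an internal start, in its own intron (500 and 447), and Atf3, which encodes a bZIP factor, 941 at 222 bp (436 and 512). Summits of CG1888 (1215) and MFS10 (940) lay in the 5′ UTR of the gene itself and that of CG5098 (915) in its own intron, each upstream of an internal start. Those of Pdrg1 (1105), mlt (896) and SLC5A11 (853) lay inside another gene. The other members of the 20 were intergenic, upstream of CG31145 (1115), CG18549 (1010), CG17896 (951), CG13921 (827) and amon (873), which encodes a prohormone convertase. The worst rank of any of these 20 was 52 in replicate 1 and 67 in replicate 3.

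REPTOR was itself among the 20. Its summit lay in an intron at 3R, position 24572661, 166 bp upstream of an internal start, in a peak from 24572431 to 24572863. Its pooled signal was 955, rank 33 of 5321, with 497 in replicate 1 (rank 32) and 449 in replicate 3 (rank 42). Another summit of the list lay 1526 bp away, and the gene also had a summit within 100 bp of a start. REPTOR-BP, which encodes its bZIP partner, had no upstream summit.

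The replicates ranked the members alike. Both had a call overlapping 1034 of the 1040 members, and Spearman's rho between the replicate signals was 0.84, as a description over these summits, beside 0.64 for summits within 100 bp of a start, 0.70 downstream, 0.70 at distal summits, 0.78 at divergent pairs and 0.74 over all peaks. Members also had the wider spread of pooled signal, with quartiles of 99.9 and 230, against 93.1 and 158 within 100 bp of a start. The part of this spread in rho was not tested. The combined list was selected on the reads of both replicates, which sets the agreement between the replicates high in advance. Their log2 ratio (replicate 1 over replicate 3) was −0.02 at the median, with an SD of 0.44. Signals differed by more than 2-fold at 38 members (3.68%), beside 4.54% of all peaks, with 7 higher in replicate 1 and 31 in replicate 3. The share was 6.14% within 100 bp of a start, a difference that did not pass the threshold (Fisher's exact test, adjusted p = 0.0639). These values take the strongest overlapping call; with the call whose summit is nearest, an alternative chosen after seeing the data, 74 members (7.16%) differed by more than 2-fold, beside 7.11% of all peaks, 24 higher in replicate 1 and 50 in replicate 3, and rho was 0.78.

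Disagreement was concentrated at low signal. In signal quartiles of the 1034 members from the top down, 0, 3, 13 and 22 differed by more than 2-fold. Members in the 5321 strongest calls of both replicates numbered 850 (81.7%), and their share by quartile was 100, 99.6, 89.5 and 39.5%. The largest difference was at a summit of Tina-1, with 33.8 in replicate 1 and 155 in replicate 3, ranks 6594 and 481. The largest in the other direction was NHP2, which encodes a protein of small nucleolar ribonucleoproteins, with 91.6 in replicate 1 and 36.1 in replicate 3.

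**Figure D3:**
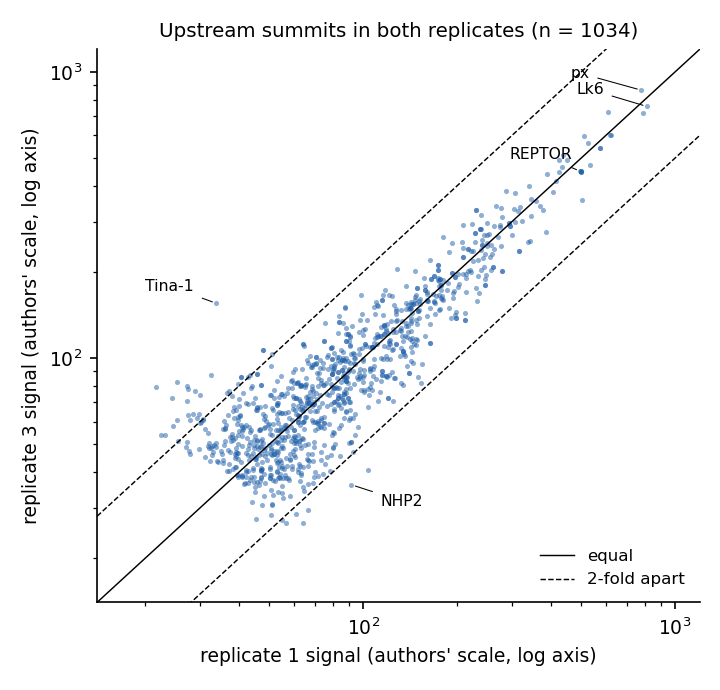
Signal of the 1034 members with a call in both replicates, replicate 1 against replicate 3, on the authors' scale with logarithmic axes; the solid line marks equal signals and the dashed lines a 2-fold difference. The strongest members, such as px at 779 and 863, lie close to the solid line, and Tina-1 (33.8 and 155) and NHP2 (91.6 and 36.1) lie outside the dashed lines.

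Core promoter motifs of housekeeping genes were rarer at members than at start-site summits. This comparison is not independent of the rule that set the classes. All member windows ended more than 50 bp from any protein-coding start, while all start-site windows came within 50 bp of a start. The same holds for every motif set against start-site summits below. Each motif was searched on both strands in the window of 50 bp on each side of the summit, the CRE palindrome being also counted as a CRE core. The DRE, TATCGATA, was in 12 windows (1.15%), beside 3.55% of all peaks and 0.322% of the tiles, and in 7.32% within 100 bp of a start (Fisher's exact test, adjusted p = 2.87e-11). In the replicates' own strongest calls, the DRE share was 1.43% and 1.28% at upstream summits and 8.88% and 5.91% at starts, in replicates 1 and 3. Motif 1, GGTCACACT, was in 6 windows (0.577%), beside 1.64% of all peaks and 0.0599% of the tiles, and in 4.41% within 100 bp of a start (exact adjusted p = 7.91e-08). Against distal summits, of which 0.352% held a DRE, the difference did not pass (exact adjusted p = 0.0660), although it did in either replicate's own calls. The strongest member with a DRE was upstream of CG1827 with a signal of 423 (220 in replicate 1 and 204 in replicate 3). Next came Sumo, the SUMO modifier gene, with 270, and l(3)73Ah, whose window is printed above, with 157. With Motif 1 the strongest were those of CG7824 (134) and CG3699 (126).

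Both motifs were more frequent on the side of the start than at the summit. In the same narrower windows, centred 100 bp from the summit towards the start, 25 members held a DRE and 18 a Motif 1, against 11 and 6 at the summit and 15 and 4 at 100 bp away from the start. For the members nearest to their start, the windows on that side took in the start itself. The CTCF motif was placed otherwise, with 20 members at the summit, 3 at 100 bp towards the start and 7 at 100 bp away from it.

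The GATA motif, AGATAA or TGATAA, and the TATA box, TATAAA, were more common at members than at start-site summits. GATA was in 174 windows (16.7%), beside 13.2% of all peaks, 13.7% of the tiles and 6.72% of windows within 100 bp of a start (exact adjusted p = 3.78e-11). The TATA box was in 176 (16.9%), beside 14% of all peaks, 15.1% of the tiles and 7.62% at starts (exact adjusted p = 2.92e-09). In members its letters lay at a median of 234 bp upstream of the start (quartiles 162 and 452 bp). The name thus stands for the letters and not for a core promoter. Of E-boxes, CATATG was in 47 windows (4.52%), beside 3.65% of all peaks and 2.01% at starts (exact adjusted p = 0.00925). CAGCTG went the other way, with 48 windows (4.62%), beside 5.84% of all peaks and 9.93% at starts (exact adjusted p = 3.07e-05). GC content differs between these classes, with medians of 35.6% at members and 45.5% at starts. Within windows of 35 to 45% GC, an alternative chosen after seeing the data, these 4 differences no longer passed, while those of the DRE and Motif 1 did. The ratio of the members' share to that at starts went from 2.49 to 1.64 for GATA (exact adjusted p = 0.174) and from 2.22 to 1.25 for the TATA box (exact adjusted p = 0.701). For CATATG it was 2.25 in all windows and 2.10 within the limits (exact adjusted p = 0.237), and for CAGCTG 0.465 and 0.615 (exact adjusted p = 0.274), with fewer windows in each test. CATATG also missed the threshold in replicate 1 alone (exact adjusted p = 0.205) and in the stricter list (0.405). In the strongest calls of replicates 1 and 3, GATA was in 16.1% and 15.6% of upstream windows and in 7.45% and 7.28% of those at starts. The TATA box was in 16.4% of upstream windows in replicate 3, against 7.17% at starts.

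Against downstream and distal summits, 1 motif comparison passed in these windows, and more did in wider ones. The repeat CACACACA was in 15 members (1.44%), beside 1.99% of all peaks, and in 5.24% of downstream summits (exact adjusted p = 3.61e-04); the ratio of the shares was 0.275. In the stricter list, with fewer summits, it was 0.291 (exact adjusted p = 0.135), and in the calls of replicate 1 alone 0.466 (exact adjusted p = 0.101). The TATA box was in 55 of 458 downstream windows, a difference that did not pass in the full list (exact adjusted p = 0.0664) but did in replicate 3 alone (3.64e-04), with divergent pairs kept (0.00582) and with members up to 500 bp (0.0155). GATA was in 14.4% of downstream and 15.9% of distal windows (exact adjusted p = 0.512 and 0.809), and no motif passed against distal summits in windows of 50 bp on each side. In windows of 100 bp on each side, the DRE passed against distal summits (ratio 7.95, exact adjusted p = 4.67e-08) and against downstream summits (ratio 4.99, exact adjusted p = 0.00581). Motif 1 then passed against distal summits (ratio 10.6, exact adjusted p = 6.40e-04) and the TATA box against downstream summits (ratio 1.38, exact adjusted p = 0.00459). The DRE also passed against distal summits with divergent pairs kept (exact adjusted p = 0.0207) and with 1 summit per gene and class (exact adjusted p = 0.0228). Of all motif comparisons in the narrower windows 7 passed, 6 of them against summits at starts.

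The CTCF motif, AGATGGCGC or AGGTGGCGC, named for the insulator protein CTCF, was in 20 members (1.92%), beside 1.43% of all peaks and 0.152% of the tiles, a ratio of 12.6 to the tiles that was not tested. It was in 1.10% of windows at starts, 0.655% downstream and 2.0% at distal summits, and none of these differences passed (exact adjusted p = 0.384, 0.218 and 1). In replicates 1 and 3 taken alone the share at upstream summits was 1.91% and 1.38%. The strongest member with it was upstream of jp, junctophilin, with signal 428 (247 and 181).

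Of the motifs of bZIP factors, the family of REPTOR, the CRE core had a share close to that of the tiles. The CRE core TGACGT was in 21 windows (2.02%), beside 2.31% of all peaks and 2.08% of the tiles. Its share was 3.11% at starts, 3.71% downstream and 1.35% at distal summits, and none of these differences passed (exact adjusted p = 0.347, 0.218 and 0.420). In the calls of replicate 3 alone, the shares of 2.06% upstream, 4.22% at starts and 4.53% downstream did differ (exact adjusted p = 0.0296 and 0.0431), and in windows of 100 bp on each side of the summit the difference from starts passed (ratio 0.614, exact adjusted p = 0.0387). The strongest members with the core were upstream of Pdrg1, with signal 1105, and of moody, a G protein-coupled receptor gene of the blood-brain barrier, with signal 633 (305 and 332). The CRE palindrome TGACGTCA was in 1 window (0.0962%), upstream of Pepck2, beside 0.226% of all peaks and 0.149% of the tiles. The AP-1 motif TGACTCA was in 12 (1.15%), beside 1.13% of all peaks and 0.925% of the tiles. The ATF4 motif TGATGCAA was in 3 (0.288%), beside 0.244% of all peaks and 0.317% of the tiles. No match says only that these letters are not in the window.

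In windows of 50 bp on each side, the remaining motifs did not pass against any class. The E-box CACGTG, bound by Myc and Mondo type dimers, was in 16 windows (1.54%), beside 1.32% of all peaks. The forkhead motif GTAAACA was in 32 (3.08%), beside 3.76% of all peaks, the GAGA motif GAGAGAG in 30 (2.88%), beside 2.01% of all peaks and 1.66% of the tiles, and the Zelda motif CAGGTAG in 3, beside 0.583% of all peaks.

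**Figure D4:**
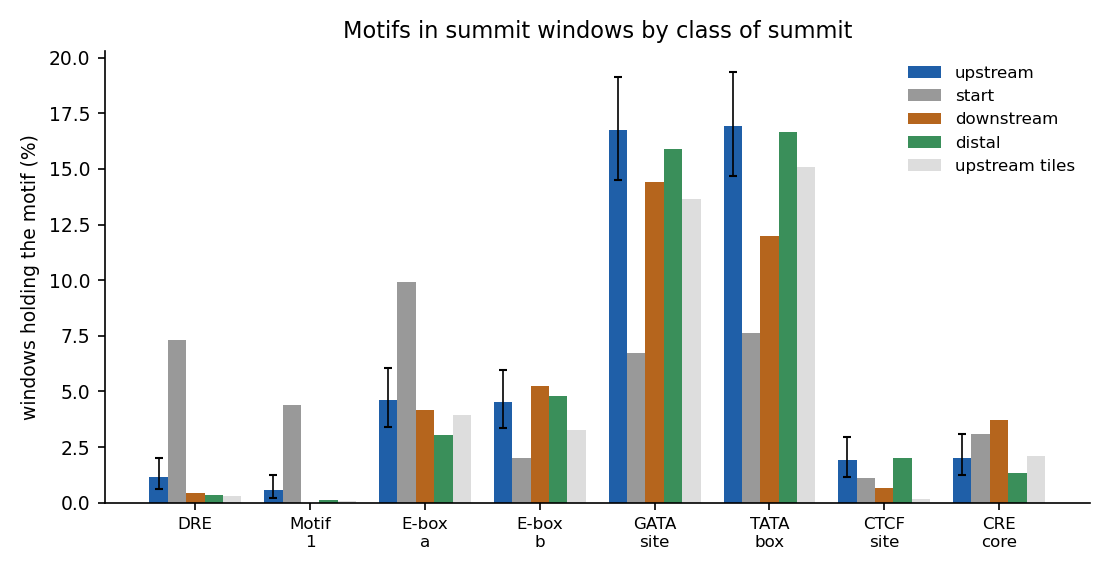
Share of summit windows (%) that hold each motif, by class of summit and in tiles of the bases meeting the rule; E-box a is CAGCTG, E-box b is CATATG and the CRE core is TGACGT, and error bars are exact 95% intervals of the members' share for counting error only. The members stand below the start-site summits for the DRE (1.15 against 7.32%) and Motif 1 (0.577 against 4.41%) and above them for GATA (16.7 against 6.72%).

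By gene, 872 of 13945 protein-coding genes (6.25%) owned an upstream summit, and the lists fell on both sides of this share. The lists were chosen with earlier results of these data known, so a high share is not an independent result. Genes of sugar, glycogen and lipid metabolism stood highest, with 11 of 34 (32.4%). Gapdh2, a glycolytic enzyme, had the strongest at 657 (384 in replicate 1 and 276 in replicate 3), 156 bp upstream. It was followed by cbt, a zinc finger factor of the response to sugar, at 619 (277 and 334), Lpin, a phosphatidate phosphatase of fat storage, at 475 (261 and 209), and Hex-A, a hexokinase, at 448 (233 and 220). The others were the glycolytic Pgk (297), Ldh (260), Eno (83.2 and 123 in replicates 1 and 3) and PyK (85.8), the glycogen phosphorylase Glyp (178) and the enzymes of fatty acid synthesis FASN1 (142) and ACC (94.0). Of this list 20.6% had a summit within 100 bp of a start, beside 14.8% of all genes.

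Of the TORC1 and insulin list, 9 of 38 genes (23.7%) owned an upstream summit. The list was also above all genes at starts, where 39.5% had a summit within 100 bp, beside 14.8% of all genes. Besides Lk6, larp and REPTOR they included Sesn, the stress-induced TORC1 inhibitor sestrin, at 706 (369 and 339), the insulin receptor InR at 277 (116 and 167), the AMPK gamma subunit SNF4Agamma at 173 (88.0 and 83.4), the kinase Pdk1 at 130 (63.9 and 65.4) and Thor, the 4E-BP, at 106 (36.5 and 75.4). Thor lay close to the outer limit at 993 bp and its replicate signals differed by more than 2-fold. Neither mTor nor raptor, which encode the TORC1 kinase and its scaffold, owned one.

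Of the stress list, 6 of 30 genes (20%) had an upstream summit, and 30% had a summit within 100 bp of a start, beside 14.8% of all genes. After Atf3 came the small heat shock gene Hsp27 at 454 (245 and 207), then CrebB at 272 (128 and 149) and CrebA at 141 (61.4 and 81.7), both genes of bZIP factors. The Nrf2 homologue cnc had 114 and Droj2, a DnaJ co-chaperone gene, 83.1.

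Ribosomal proteins, the respiratory chain and the proteasome were below the overall share upstream. Cytoplasmic ribosomal protein genes owned an upstream summit in 3 of 92 (3.26%), the strongest at RpL17 with 340 (171 and 165), whereas 70 of the 92 (76.1%) had a summit within 100 bp of a start. Mitochondrial ribosomal proteins had 1 of 73 (mRpL13, 116), the respiratory chain and ATP synthase 2 of 80 (ND-ASHI at 384 and COX7AL2 at 185) and the proteasome 1 of 48 (Rpn6, 208). Translation factors, with 4 of 52 (7.69%), were close to the 6.25% of all genes, the strongest at eIF2D with 127. Autophagy and lysosome genes had 2 of 66 (3.03%), Atg8a, the ubiquitin-like protein of autophagosomes, at 182, and VhaPPA1-1, a proton pump subunit, at 147.

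Signalling and patterning genes were above the overall share. Notch, Wingless, Hippo and EGF receptor genes had 8 of 42 (19.0%), led by sgg, the kinase GSK3, at 520 (244 and 270), and spi, an EGF receptor ligand, at 518 (237 and 282), with kibra (168) and N, the Notch receptor (150), next. Patterning and homeotic factors had 5 of 35 (14.3%), with fkh at 268, bcd at 191, tin at 119 and wg at 107 the strongest. Cell cycle and replication genes had 4 of 33 (12.1%), with Dp, the partner of E2F, at 329, Cdk4 at 170, Rbf at 103 and fzr at 79.2. The replicate signals of fzr, 63.9 in replicate 1 and 26.5 in replicate 3, differed by more than 2-fold. Of 15 neuronal genes 2 had one, elav at 491 and Nrx-1 at 283.

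The lists also differed in the length of sequence open to the rule. Per Mb of bases whose nearest start belongs to the list, there were 412 upstream summits for TORC1 and insulin genes, 431 for stress genes and 396 for metabolism, beside 111 over all genes. These 3 densities rest on 17, 10 and 14 summits. Of the 17, larp had 6 and Pdk1 had 4, and of the 10 of the stress list cnc had 3. Signalling genes had 196 per Mb, but patterning genes 119 and neuronal genes 89.0, close to or below the overall density. Ribosomal protein genes had 94.2 per Mb, mitochondrial ribosomal proteins 84.1, the respiratory chain 84.4 and the proteasome 47.2, while autophagy and lysosome genes had 137, translation factors 169 and cell cycle genes 200 per Mb. These shares and densities are counts and were not tested, and wg is in 2 lists.

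**Figure D5:**
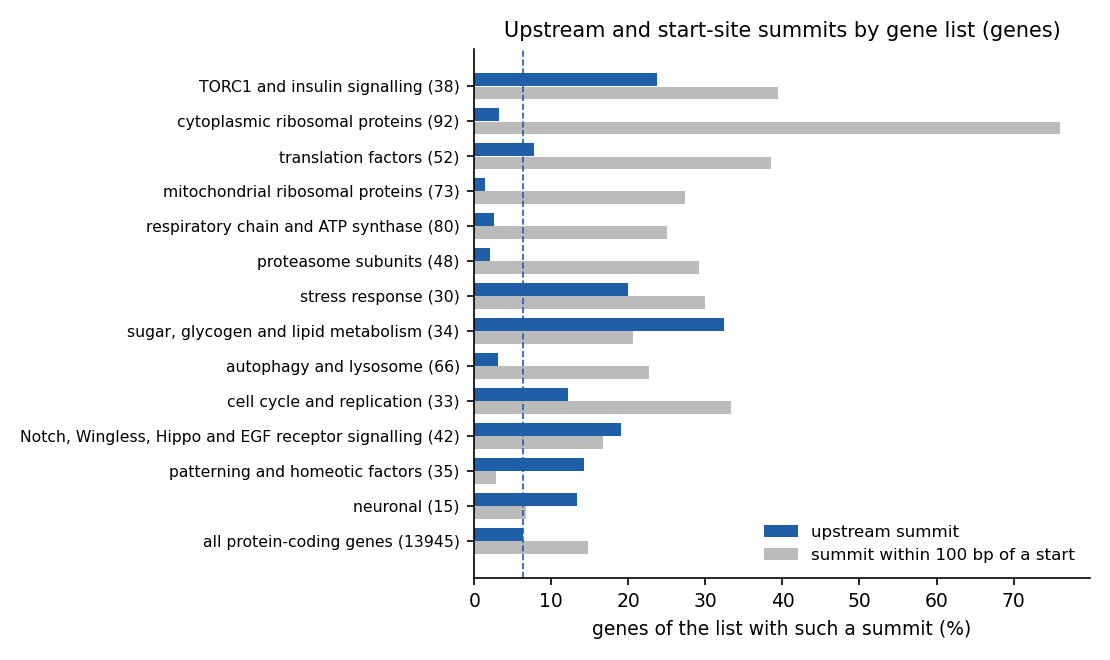
Share of the genes in each list (%; number of genes in brackets) that own an upstream summit, in blue, and that have a summit within 100 bp of a start site, in grey; the dashed line marks the 6.25% of all protein-coding genes with an upstream summit. Metabolism (32.4%) and TORC1 and insulin genes (23.7%) lie to the right of the line, and cytoplasmic ribosomal protein genes combine the tallest grey bar (76.1%) with a short blue one (3.26%). The lists were chosen with earlier results of these data known.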

How the data were processed

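ChIP-seq peak lists of 2 replicates and of both together, on dm6, were used as deposited. Per the notes deposited with the files, calls were made against a control file, and the combined list holds calls passing a threshold on the irreproducible discovery rate. Which aligner and caller were used is not given in the sources used here. Each peak's signal is the authors' value, used for ranks within a list and for ratios between replicate lists. The deposited summit offset, a whole number of bp, gave positions. Starts came from Ensembl release 115 (13945 protein-coding genes), sequences from Release 6. A replicate's value at a peak was its strongest call overlapping by at least 1 bp. Shares were compared with two-sided Fisher's exact tests over summits (SciPy 1.17.1), Benjamini-Hochberg adjusted over 54 tests, threshold 0.05, and tested on simulated data. With 1 group of 2 replicates nothing was tested across replicates. Intervals are exact (Clopper-Pearson, 95%) and cover counting error only. The 13 gene lists (636 genes), motifs and members were chosen with earlier results of these data known. Named were the 20 strongest members, up to 4 genes per list with the strongest upstream summit, REPTOR, REPTOR-BP and summits nearest to the limits; further genes of the metabolism, TORC1 and stress lists, genes with at least 4 summits, those with the largest replicate differences and the strongest with a motif were named after their values were seen. Python 3.11.15, pandas 2.3.3 and NumPy 2.4.6 were used. The dm3 lists were not used here.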

Additional observations from a re-analysis of the deposited data

How the results depend on the processing

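No paired analysis was possible because there is a single group. Of 338 recomputed values, 285 kept their direction and side of the threshold or stayed within the error of the reported value. In 12, ratios that had not passed crossed 1 and still did not pass. Within the GC limits these were CTCF against distal (1.32), the CRE core against downstream (1.04), GATA against downstream (0.958) and distal (0.878) and the TATA box against distal summits (0.768). In wider windows they were GATA (0.999) and TATA (0.990) against distal. With either replicate left out, GATA ran from 0.979 to 1.18 against downstream and from 0.927 to 1.03 against distal. The DRE against downstream was 0.998 in the stricter list, TATA against distal 0.978 with divergent pairs up to 2000 bp apart, and replicates differing against distal 1.13 with the nearest summit. The number of members was 604 in the stricter list. Their share of the list was 18.2% with divergent pairs up to 2000 bp apart left out, 23.6% with divergent pairs kept, 15.2% up to 500 bp and 22.7% in the stricter list. With divergent pairs kept, 54.5% were intergenic and 33.8% inside their own gene; with 1 summit per gene and class, 49.7% and 36.2%. The share whose gene had a start-site summit was 7.78% in the stricter list. The share differing by more than 2-fold between replicates was 1.33% in the stricter list, 5.21% with an overlap of at least 50% of the peak and 7.16% with the nearest summit. The ratio of that share to start-site summits was 0.446 up to 500 bp (adjusted p = 0.00338, Fisher's exact test), to distal summits 0.548 up to 500 bp (0.0263), and to downstream summits 0.567 with the larger overlap (0.0263). Motif comparisons past the threshold numbered 15 in windows of 100 bp on each side, 3 within 35 to 45% GC, and 7 to 11 when either replicate was left out. Fewer summits enter the stricter list and the GC limits; other causes were not tested. The GC limits, 1 summit per gene and the nearest summit were chosen after seeing the data. Read depth is unknown, so low signals limit the weaker members most.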

Other observations

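Words of 6 letters were counted on both strands in the windows of 50 bp on each side of the summit, beside 76761 tiles of the bases that meet the rule. Of the 862 words found in at least 40 members, the following were picked after their values were seen, and none was tested. The highest ratio to the tiles was that of ACACTG, in 95 members (9.13%) and 3.41% of the tiles, with 8.89% in replicate 1 and 8.64% in replicate 3 among each replicate's own strongest upstream calls. It was in 15.7% of windows within 100 bp of a start, and it overlaps Motif 1. ACAGTG was in 90 members (8.65%) and 3.65% of the tiles, with 9.39% downstream and 8.10% at distal summits. AGTGTA was in 90 members (8.65%) and 4.02% of the tiles, but in 4.61% at starts and 5.24% downstream. CGATAG, which shares letters with the DRE, was in 51 members (4.90%), 2.16% of the tiles and 19.4% of windows at starts. The lowest ratio was that of CAGCAG, in 42 members (4.04%) and 6.70% of the tiles.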
